A study of Mus musculus with 2 samples.

Results

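Prox1, Lyve1, Mmrn1, Ccl21a, Pdpn and Reln are genes by which lymphatic endothelium is recognized, and they were followed across all cell types of the inflamed temporomandibular joint (TMJ) in WT and Prox1+/− mutant mice. The 6 genes were picked by symbol from the gene list of the count tables, in which they took 7 of 32285 feature rows. Ccl21a has a second feature row under the same symbol, and that row held 0 UMIs in both libraries. A UMI (unique molecular identifier) stands for 1 captured transcript. No value of the 6 genes was used to find or name the cell types.

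Lymphatic vessels return fluid and immune cells from tissues, joints included, to the blood. Prox1 is the homeodomain transcription factor that sets lymphatic endothelial fate and is needed to keep it. Lyve1 is a hyaluronan receptor of lymphatic capillaries that is also made by a subset of tissue-resident macrophages. Mmrn1 encodes multimerin 1, a large secreted glycoprotein. Ccl21a encodes a chemokine that draws dendritic and T cells carrying Ccr7. Pdpn encodes podoplanin, a membrane glycoprotein that binds the platelet receptor Clec1b and is also found on fibroblasts and on some inflammatory macrophages. Reln encodes reelin, a secreted matrix glycoprotein that is read by the receptors Vldlr and Lrp8.

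The TMJ tissue came from C57BL/6 mice, 8 to 10 weeks of age per the labels. The study's text describes the mice used for this experiment as females. Every mouse, WT or mutant, had received complete Freund's adjuvant (CFA) into the joint, so there is no untreated group. The mutant is heterozygous at Prox1, and which part of the gene the altered allele lacks is not given in the sources used here, so the Prox1 counts are no check of the genotype label. Cells were dissociated and run through droplets, 1 library for each genotype. How many mice entered a library is not given either. With 1 library for each genotype there are no replicates, no test was made between genotypes, and every interval below covers counting error only.

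Levels are given as UMIs of a gene per 1000000 UMIs of the cells named (CPM). Depth was 53517206 UMIs in 5709 barcodes for WT and 62446987 in 7846 for the mutant. After removal of barcodes with fewer than 500 genes or with 10% or more mitochondrial UMIs there were 4352 WT cells with a median of 6997 UMIs and 5757 mutant cells with a median of 4848. The libraries shared 10 barcodes, 4 of them among kept cells. Clusters without a cell type name held 173 WT cells (3.98%) and 1796 mutant cells (31.2%). The median gene ran 0.08 lower in the mutant on the log2 scale over all cells, and of 17754 genes with at least 30 UMIs 11.4% differed at least 2-fold between the libraries, 5.42% upward in the mutant and 6% downward.

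On GRCm38 the gene body of Prox1 (ENSMUSG00000010175) spans chromosome 1, 190118035 to 190170714, minus strand. The noncoding gene Prox1os runs on the opposite strand and overlaps Prox1 by 419 bases. It held 20 UMIs in kept WT cells and 7 in kept mutant cells, and it was counted separately. Lyve1 (ENSMUSG00000030787) lies on chromosome 7 from 110850607 to 110863239, Mmrn1 (ENSMUSG00000054641) on chromosome 6 from 60924976 to 60989378 and Ccl21a (ENSMUSG00000094686) on chromosome 4 from 42772860 to 42773993. Pdpn (ENSMUSG00000028583) lies on chromosome 4 from 143267431 to 143299564 and Reln (ENSMUSG00000042453) on chromosome 5 from 21884454 to 22344702. All 6 are protein-coding genes in GENCODE M21.

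The RefSeq promoter windows of GRCm38.p6, from 250 bases before to 50 bases after a start, were matched by symbol for 5 of the 6 genes. They are shown for Prox1, Mmrn1 and Ccl21a, whose WT UMIs came more from lymphatic endothelial-like cells than from any other class, and for Pdpn, which held the motif matches. Short motifs of 3 factor families with lymphatic roles were searched on both strands. AACAAAG, a SOX-type motif, occurred in 5.85% of 32851 windows. AGGTCA, the nuclear receptor half-site, occurred in 16.3%, and TGGAAA, the core of an NFAT motif, in 21.4%. The Pdpn window held 1 match to AACAAAG and 1 to AGGTCA, printed in capitals. The other windows of these genes, a second one of Prox1 and that of Reln included, held no match to any of the 3 motifs, which says only that these letters are not in these windows. The Mmrn1 window is placed at the RefSeq start, which lies inside the gene body given above. Each sequence runs 5′ to 3′ along the gene.
Prox1, chr1:190170778-190171077, minus strand: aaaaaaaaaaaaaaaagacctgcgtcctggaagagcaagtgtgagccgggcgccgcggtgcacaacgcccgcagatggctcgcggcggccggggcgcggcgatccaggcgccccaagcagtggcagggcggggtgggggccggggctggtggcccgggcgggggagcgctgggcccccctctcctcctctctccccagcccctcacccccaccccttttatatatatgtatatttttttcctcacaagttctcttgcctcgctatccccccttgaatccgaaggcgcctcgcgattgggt
Mmrn1, chr6:60944067-60944366, plus strand: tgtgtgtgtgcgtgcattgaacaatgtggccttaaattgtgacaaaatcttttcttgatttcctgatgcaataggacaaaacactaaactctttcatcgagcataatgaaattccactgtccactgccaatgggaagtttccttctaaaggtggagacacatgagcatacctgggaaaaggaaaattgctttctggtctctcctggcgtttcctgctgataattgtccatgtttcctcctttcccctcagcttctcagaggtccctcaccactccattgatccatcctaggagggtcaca
Ccl21a, chr4:42773942-42774241, minus strand: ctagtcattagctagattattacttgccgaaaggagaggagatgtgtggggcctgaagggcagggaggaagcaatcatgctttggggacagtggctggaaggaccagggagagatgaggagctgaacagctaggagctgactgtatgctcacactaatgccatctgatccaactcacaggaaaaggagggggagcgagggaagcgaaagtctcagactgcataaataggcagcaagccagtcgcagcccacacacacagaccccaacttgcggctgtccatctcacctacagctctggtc
Pdpn, chr4:143299515-143299814, minus strand: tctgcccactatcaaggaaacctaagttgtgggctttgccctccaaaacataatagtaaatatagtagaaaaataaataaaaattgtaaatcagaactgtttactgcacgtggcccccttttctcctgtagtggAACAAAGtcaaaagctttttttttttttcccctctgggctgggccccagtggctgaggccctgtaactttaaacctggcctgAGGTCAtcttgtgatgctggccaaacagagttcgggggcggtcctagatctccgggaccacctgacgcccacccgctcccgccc

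Lymphatic endothelial-like cells were rare. They were 12 of 4352 WT cells and 4 of 5757 mutant cells, found as 1 subcluster of the endothelial cells in which all 13 lymphatic markers of the list were raised, led by Sema3d, Foxp2, Col23a1, Fgl2 and Pard6g. Each of the 16 cells held 6 to 13 of those markers and 1 to 91 UMIs of the endothelial gene Pecam1. The leukocyte gene Ptprc was at 0 in 15 of them and at 1 UMI in the other. None of the 16 was marked as a doublet. The doublet score behind these marks called 0 barcodes at its own threshold. The marks were set by rank alone and cannot be relied on to tell single cells from doublets here. The WT cells ranged from 2066 to 87548 UMIs and the mutant cells from 3844 to 33180.

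The UMIs of the 6 genes set these cells apart from their neighbours, and none of the 6 had been used in the clustering. The space of this reclustering was chosen after the clusters had been seen, so the separation is a description. In the integrated space the named cells were 49 in WT and 25 in the mutant. Of these, 58 were not among the 16 cells, and only 7 of the 58 held Prox1 and 5 held Mmrn1. Prox1 and Mmrn1 were detected in all 16 cells, and every cell held 4 to 6 of the 6 genes. The 16 cells came from a cluster that had as a whole been named lymphatic endothelial. Its other 122 WT cells held 1 UMI of Reln and 0 of the other 5 genes. Its other 172 mutant cells held 0 UMIs of Prox1 and Ccl21a, 1 of Mmrn1, 2 of Lyve1, 4 of Pdpn and 10 of Reln. These neighbours were shallow, with medians of 1200 UMIs in WT and 1503 in the mutant, against 5820.5 and 17045 in the lymphatic endothelial-like cells.

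**Figure D1:**
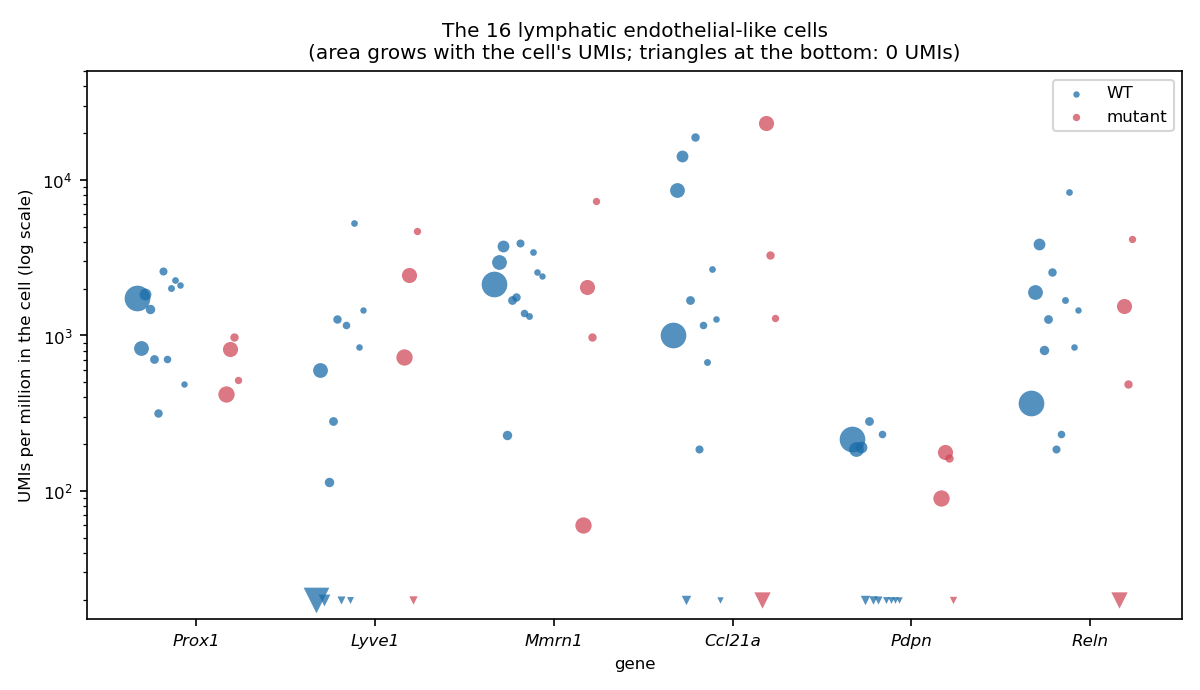
UMIs of each of the 6 genes in every lymphatic endothelial-like cell, in CPM, for 12 WT and 4 mutant cells. Point size follows the cell's depth, and the highest Ccl21a value belongs to 1 mutant cell with 652 UMIs of the gene.

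The share of lymphatic endothelial-like cells was lower in the mutant library by count. It was 0.276% of kept WT cells (95% Clopper-Pearson interval 0.143 to 0.481) and 0.0695% of kept mutant cells (0.0189 to 0.178). The mutant share minus the WT share was −0.206 percentage points (Newcombe interval −0.416 to −0.0456). With 30 principal components in the clustering the cells numbered 8 and 3, and the interval of the difference of −0.132 percentage points spanned 0 (−0.314 to 0.00400). Among the barcodes that the cell filter removed, 11 in WT and 10 in the mutant held Pecam1 or Cdh5 and at least 2 lymphatic markers, as did all 12 and 4 lymphatic endothelial-like cells. Over endothelial cells alone the shares were 0.951% (0.492 to 1.66) and 0.459% (0.125 to 1.17), and the interval of that difference spanned 0 (−1.25 to 0.331). Without clusters, after thinning every cell to 2000 UMIs, 121 of 3843 WT cells (3.15%) and 95 of 4488 mutant cells (2.12%) held Pecam1 or Cdh5 and at least 2 lymphatic markers. Of these, 98 WT and 64 mutant cells belonged to the other endothelial cells, so most cells that met this rule lay outside the lymphatic subcluster. The part of depth and of the unnamed cells in these shares was not tested.

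The transcription factor Prox1 was present in each lymphatic endothelial-like cell of both genotypes at a lower level in the mutant library. The 12 WT cells held 152, 29, 22, 14, 13, 6, 6, 5, 5, 3, 2 and 1 UMIs of Prox1, and the 4 mutant cells held 23, 14, 6 and 2. Per cell this was 319 to 2604 CPM in WT, with a median of 1613, and 422 to 981 CPM in the mutant, with a median of 671. The ranges overlapped, and the upper part of the WT range had no mutant counterpart. Summed over cells, Prox1 stood at 1503 CPM in WT cells (95% interval 1325 to 1698) against 633 CPM in mutant cells (462 to 847), for a log2 ratio of −1.25 (−1.74 to −0.79). One WT cell with 87548 UMIs carried 152 of the 258 WT UMIs, and without the cell of each library richest in Prox1 the ratio was −1.31 (−2.04 to −0.63). Leaving out each of the 16 cells in turn gave ratios from −1.56 to −0.88. In these cells 28.1% of 1767 genes with at least 30 UMIs differed at least 2-fold in either direction, so a change of this size was common among them. Of the 6 genes, 3 (Prox1, Lyve1 and Ccl21a) were past it. The minimum of 30 UMIs lies far below the 258 WT UMIs of Prox1, and no share at a higher minimum is given here. The median gene of these cells was 0.14 lower in the mutant on the log2 scale.

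The capillary receptor Lyve1 went the other way. The WT cells held 16, 14, 8, 5, 3, 2, 2 and 1 UMIs of Lyve1 and 4 of the 12 held 0, while the 4 mutant cells held 68, 24, 18 and 0. The groups overlapped, since cells with 0 occurred in both and the highest CPM was a WT cell (5325 CPM against 4683 CPM in the mutant). The sums were 297 CPM in WT cells (95% interval 221 to 391) against 1547 CPM in mutant cells (1271 to 1864), for a log2 ratio of 2.38 (1.89 to 2.89). The deepest WT cell, which supplied 87548 of the 171625 UMIs of the WT cells, had no Lyve1, and without it the ratio was 1.35 (0.86 to 1.86).

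Mmrn1 and Reln, both secreted glycoproteins, were lower in the mutant sum, and in both a single mutant cell decided the direction. Mmrn1 ranged from 2 to 187 UMIs in the WT cells, with a median of 10, and was 57, 28, 6 and 2 UMIs in the mutant cells. Its sums were 2336 and 1308 CPM, a log2 ratio of −0.84 (−1.18 to −0.51). Reln ranged from 1 to 61 UMIs in the WT cells, with a median of 8, and was 43, 16, 3 and 0 UMIs in the mutant cells, for sums of 1224 and 872 CPM and a ratio of −0.49 (−0.92 to −0.07). Without the mutant cell of 33180 UMIs, which held 2 UMIs of Mmrn1 and 0 of Reln, the ratios became 0.04 (−0.31 to 0.37) and 0.42 (−0.02 to 0.83). Without the cell of each library richest in the gene they became −1.61 and −1.12.

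The mutant sum of the chemokine Ccl21a rested on 1 cell. The WT cells held 229, 223, 118, 88, 12, 7, 5, 3, 2 and 1 UMIs and 2 of the 12 held 0, and the mutant cells held 652, 20, 5 and 0. One mutant cell thus carried 96.3% of the mutant UMIs, while the richest WT cell carried 33.3% of the WT UMIs. The sums were 4009 CPM in the WT cells against 9520 CPM in the mutant cells, for a log2 ratio of 1.25 (1.09 to 1.40), and without the richest cell of each library the ratio reversed to −2.45 (−3.09 to −1.87). The medians over cells were 1221 CPM for WT against 2285 CPM for the mutant. No direction can be read for Ccl21a from these cells.

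Podoplanin, Pdpn, was the sparsest of the 6 genes in the lymphatic endothelial-like cells. It was detected in 5 of 12 WT cells, with 19, 5, 3, 2 and 1 UMIs, and in 3 of 4 mutant cells, with 5, 3 and 1. The sums of 175 CPM (118 to 250) and 127 CPM (57.9 to 240) gave a log2 ratio of −0.47 with an interval that spanned 0 (−1.73 to 0.65). A difference was not detectable at this depth.

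**Figure D2:**
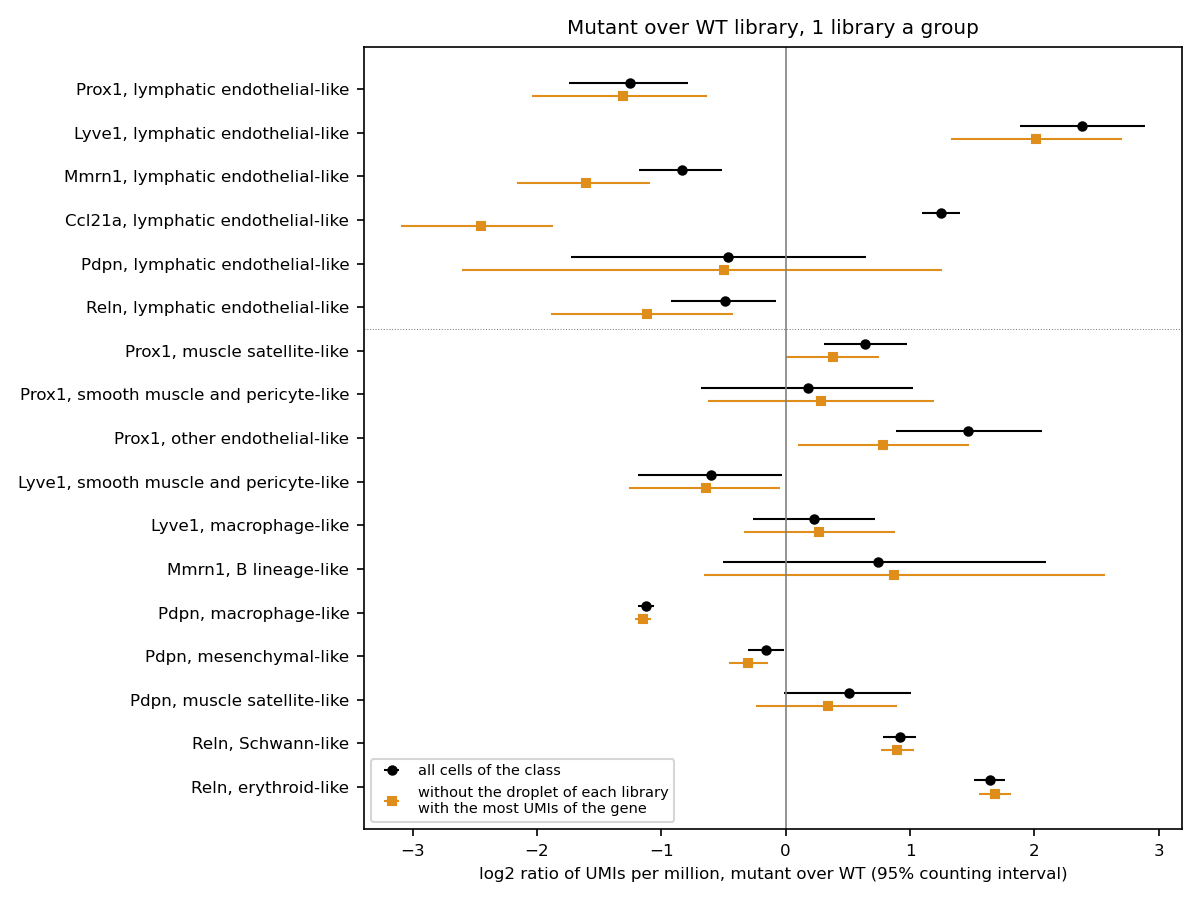
Log2 ratio of mutant over WT level for each gene in the lymphatic endothelial-like cells (above the dotted line) and in other classes that hold many of its UMIs, with 95% counting intervals. Black circles use all cells of the class and orange squares leave out the droplet of each library with the most UMIs of the gene, which moves Ccl21a from 1.25 to −2.45.

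The 6 genes differed in how far they belonged to the lymphatic endothelial-like cells. In WT these 12 cells carried 91.3% of the Mmrn1 UMIs of all kept cells, 88.4% of the Ccl21a UMIs and 45.8% of the Prox1 UMIs. They carried 20% of the Lyve1 UMIs, 10.3% of the Reln UMIs and 0.382% of the Pdpn UMIs. In the mutant the 4 cells carried 99.6% of the Ccl21a UMIs, 53.8% of the Mmrn1 UMIs, 41.8% of the Lyve1 UMIs and 14.3% of the Prox1 UMIs.

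**Figure D3:**
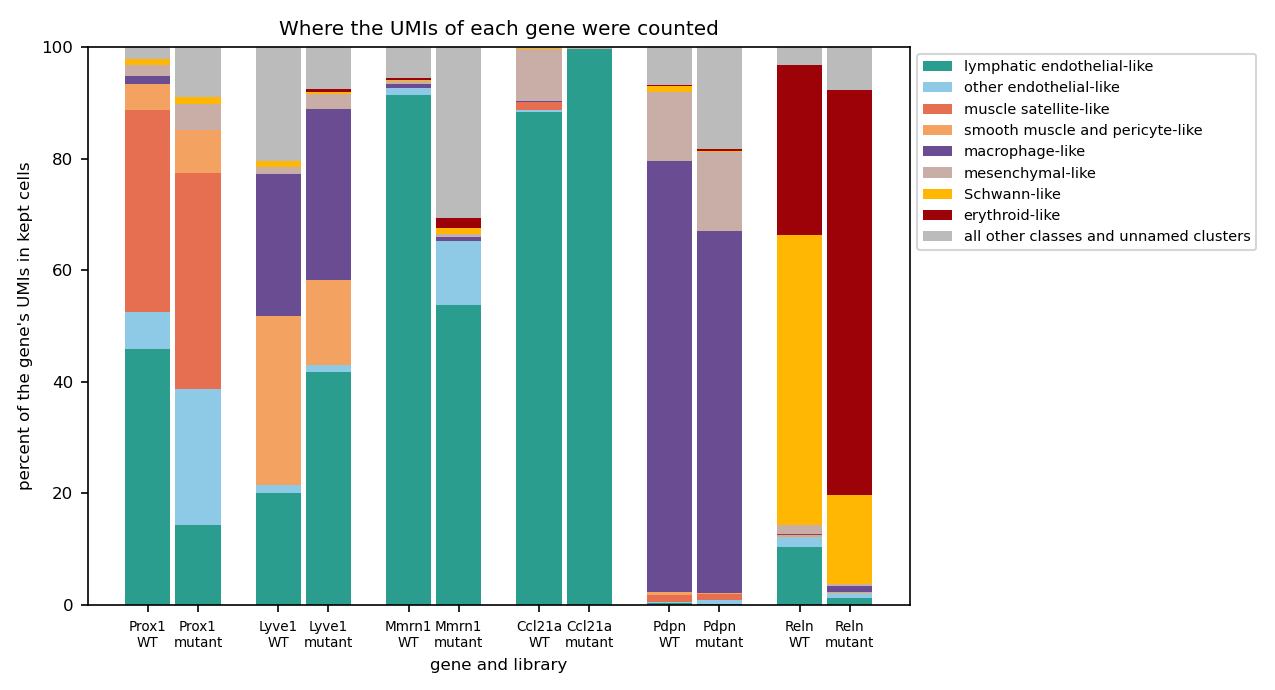
Share of each gene's UMIs over all kept cells that came from each cell class, in percent, for the WT and the mutant library. Lymphatic endothelial-like cells hold 91.3% of WT Mmrn1 UMIs and 0.382% of WT Pdpn UMIs.

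**Figure D4:**
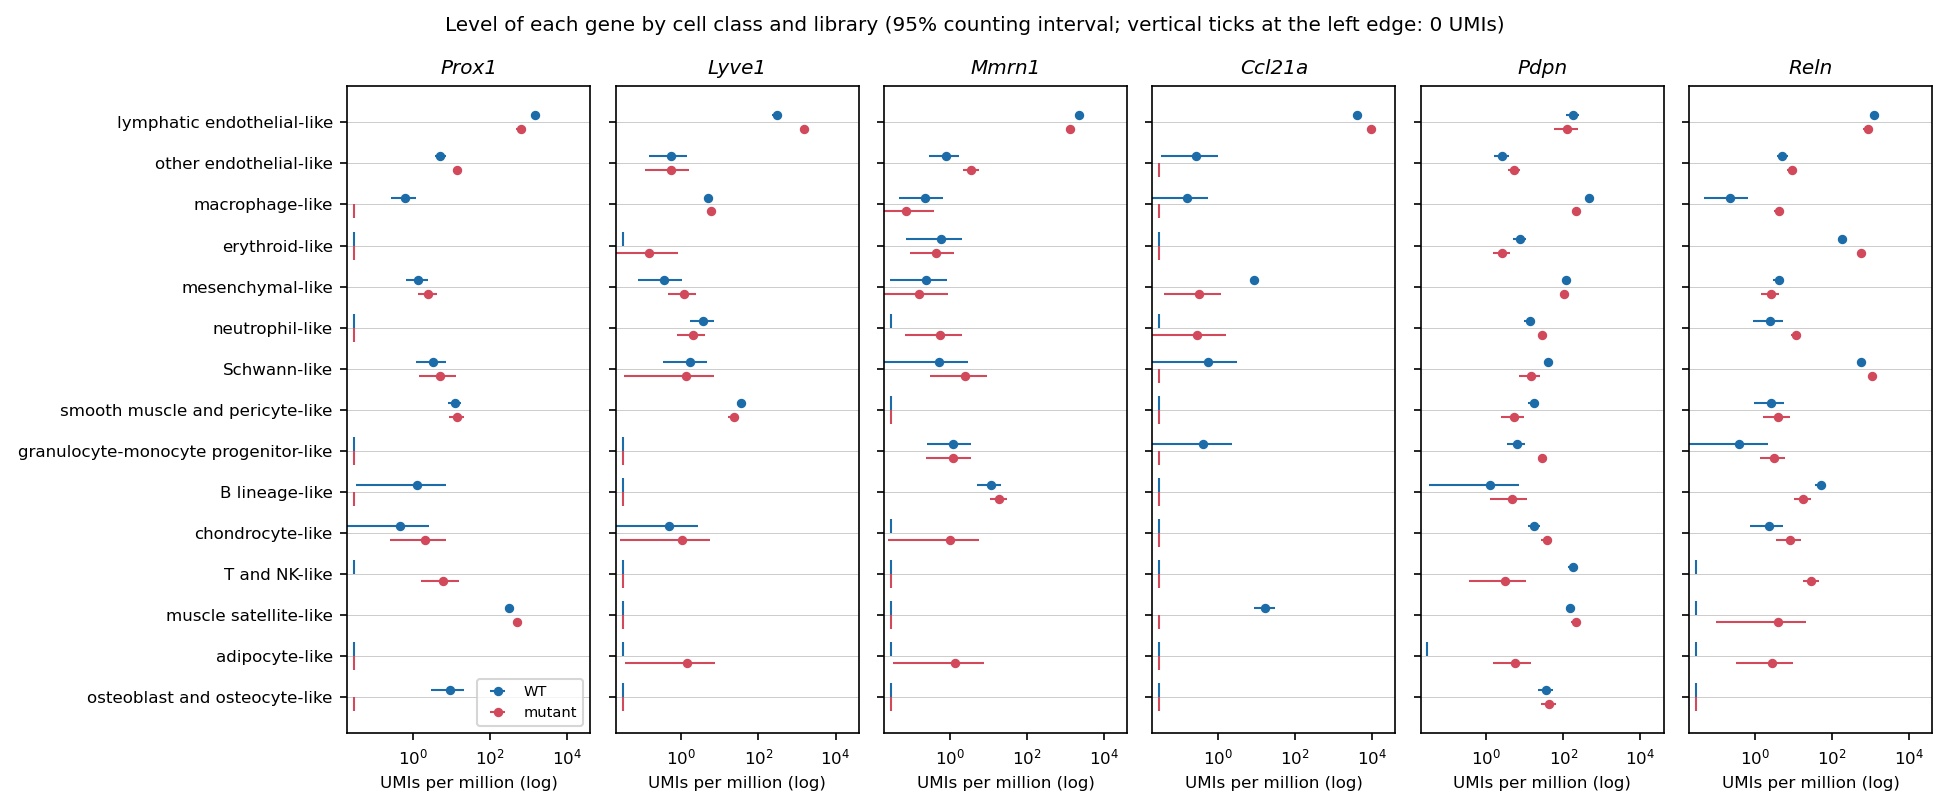
Level of each gene in each named cell class and library, in CPM on a log axis with 95% counting intervals, where vertical ticks at the left edge mark 0 UMIs. Prox1 is highest in lymphatic endothelial-like and muscle satellite-like cells, while Pdpn is highest in macrophage-like cells.

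The second home of Prox1 was muscle. Muscle satellite-like cells, the Pax7-marked stem cells of skeletal muscle, held 203 UMIs of Prox1 in 62 of 89 WT cells and 122 in 29 of 35 mutant cells. The cells ranged from 0 to 16 UMIs in WT and from 0 to 30 in the mutant, with a median of 2 in both. The levels were 312 CPM in WT cells (95% interval 271 to 358) against 487 CPM in mutant cells (404 to 581), for a log2 ratio of 0.64 (0.30 to 0.97), which fell to 0.38 (0.01 to 0.75) without the richest cell of each library. Thinned to 2000 UMIs, Prox1 was detected in 42.4% of 85 cells in WT (31.7 to 53.6) and in 48.6% of 35 in the mutant (31.4 to 66.0). Of 4865 genes in these cells 10.8% differed at least 2-fold, 4.6% upward and 6.15% downward. Neutrophil-like cells, used as the background class, held 0 Prox1 UMIs in 311 WT and 334 mutant cells with medians of 4690 and 8714.5 UMIs, which allows shares of cells with a UMI of up to 0.965% and 0.898% and says nothing of expression below capture. Satellite-like cells had medians of 7008 and 6657 UMIs.

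In WT the order of Prox1 was lymphatic endothelial-like, then satellite-like, then smooth muscle and pericyte-like cells at 12.2 CPM, and the intervals of these 3 were apart, while the third overlapped the class after it. In the mutant the intervals of the first (633 CPM) and the second (487 CPM) overlapped, and so did those of other endothelial cells (14.2 CPM) and smooth muscle and pericyte-like cells (13.8 CPM) after them. Smooth muscle and pericyte-like cells held 27 WT and 24 mutant UMIs, with a log2 ratio of 0.18 and an interval that spanned 0 (−0.68 to 1.03).

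Outside the lymphatic subcluster, endothelial cells held Prox1 at a low level, mostly in 1 venous cluster. The other endothelial cells held 38 UMIs of Prox1 in 25 of 1250 WT cells and 77 in 20 of 867 mutant cells, 5.15 and 14.2 CPM. The log2 ratio was 1.46 (0.88 to 2.06). A mutant droplet with 34 UMIs of Prox1, in which 9 of 9 endothelial and 2 of 13 lymphatic markers were detected, and a second one with 13 UMIs supplied most of the mutant count. Without the richest droplet of each library the ratio was 0.78 (0.10 to 1.48). In the endothelial subcluster of the first of these droplets the ratio of 1.84 (1.05 to 2.68) moved to 0.03 (−1.27 to 1.26) without the richest droplets. In these cells 7.51% of 12022 genes differed at least 2-fold, 5.57% upward and 1.94% downward. The larger venous endothelial cluster, in which all 7 venous markers (Ackr1, Selp and Vwf among them) were raised, held 27 of the 38 WT UMIs, in 16 of 159 cells, and 69 of the 77 mutant UMIs, in 13 of 90 cells. The droplets with 34 and 13 UMIs were among these mutant venous cells. After reclustering, 20 WT and 44 mutant UMIs lay in 1 subcluster that received no name, and 11 and 12 in another unnamed one. A further unnamed subcluster held 0 WT and 15 mutant UMIs, 13 of the latter in 1 droplet. Arterial and capillary clusters were lower, with 4 UMIs in 240 WT arterial cells and 7 in the 626 WT cells of the main capillary cluster. Venous cells were also deeper, with medians of 13697 UMIs in WT and 14820 in the mutant against 3848.5 and 5320.5 in the main capillary cluster, and the WT levels were 10.6 CPM in venous and 2.50 CPM in capillary cells.

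Over all kept cells Prox1 had 563 UMIs in WT and 315 in the mutant, and the log2 ratio of −1.01 moved to −0.72 without the richest droplet of each library. This ratio mixes levels with cell numbers. Satellite-like cells were 89 of 4352 WT and 35 of 5757 mutant cells, and lymphatic endothelial-like cells 12 and 4. The part of cell numbers in it was not tested. Within classes Prox1 was lower in the mutant in lymphatic endothelial-like cells and higher in satellite-like cells. It was also higher in the other endothelial cells, where 34 and 13 of the 77 mutant UMIs lay in 2 droplets. The difference between the classes was not tested.

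Lyve1 had 3 sources, of which lymphatic endothelium was only 1. Smooth muscle and pericyte-like cells held 77 UMIs in 51 of 215 WT cells and 40 in 26 of 155 mutant cells, 34.8 and 23.0 CPM. Within them nearly all lay in the cluster led by Myh11, the smooth muscle myosin, with 74 UMIs in 48 of 152 WT cells and 38 in 24 of 89 mutant cells. Another cluster of the class, led by Actg2, Vtn and Rgs5, held 3 UMIs in 63 WT cells and 0 in 34 mutant cells. Kcnj8 and Cnn1 were also among its leading genes, and it was not named as pericytes alone. No smooth muscle and pericyte-like cell held more than 5 UMIs. The log2 ratio of mutant over WT was −0.60 (−1.19 to −0.03), and 5.58% of 9709 genes in these cells differed at least 2-fold, 2.18% upward and 3.4% downward.

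Depth bears on that share. Thinned to 2000 UMIs, of the smooth muscle and pericyte-like cells 6.28% of 207 in WT (3.39 to 10.5) and 3.01% of 133 in the mutant (0.825 to 7.52) held Lyve1. Neutrophil-like cells gave 1.13% of 265 in WT (0.234 to 3.27) and 0 of 297 in the mutant, which allows a share of cells with a UMI of up to 1.01%. Unthinned, the shares were 23.7% and 16.8% in smooth muscle and pericyte-like cells, with medians of 9148 and 12163 UMIs, and 2.57% and 1.80% in neutrophil-like cells.

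Among macrophages Lyve1 was found in 1 small resident-type subcluster. This subcluster was led by Mrc1, Slc40a1 and Clec10a, and all 8 resident-type markers, Folr2, Cd163 and Timd4 among them, were raised. It held 57 UMIs of Lyve1 in 11 of 20 WT cells and 47 in 9 of 25 mutant cells, at 265 CPM (200 to 343) and 135 CPM (99.5 to 180). Single cells held up to 22 UMIs in WT and up to 20 in the mutant. A second resident-type subcluster, led by Negr1, Ccl12 and Tppp3, held 0 Lyve1 UMIs in 63 WT and 108 mutant cells. The only other macrophage-like value above 8 UMIs was 27 in the mutant cells of a subcluster led by Tagln and Acta2. Of these UMIs 26 came from 1 droplet, and the WT cells of that subcluster held 0. Over all macrophage-like cells Lyve1 stood at 5.04 CPM in the WT library against 5.89 CPM in the other, for a log2 ratio of 0.23 with an interval that spanned 0 (−0.26 to 0.72) and a direction that 3 of 10 other settings turned, where the median gene of these cells was itself 0.22 higher in the mutant. By class the order in WT was lymphatic endothelial-like at 297 CPM, apart from smooth muscle and pericyte-like at 34.8 CPM, which overlapped an unnamed cluster at 27.9 CPM. In that unnamed cluster 30 of the 39 WT UMIs lay in 1 droplet of 41191 UMIs, in which 8 of 8 macrophage and 5 of 7 satellite markers were detected. In the resident-type subcluster the ratio was −0.97 (−1.55 to −0.38) and −1.02 without the richest droplets.

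**Figure D5:**
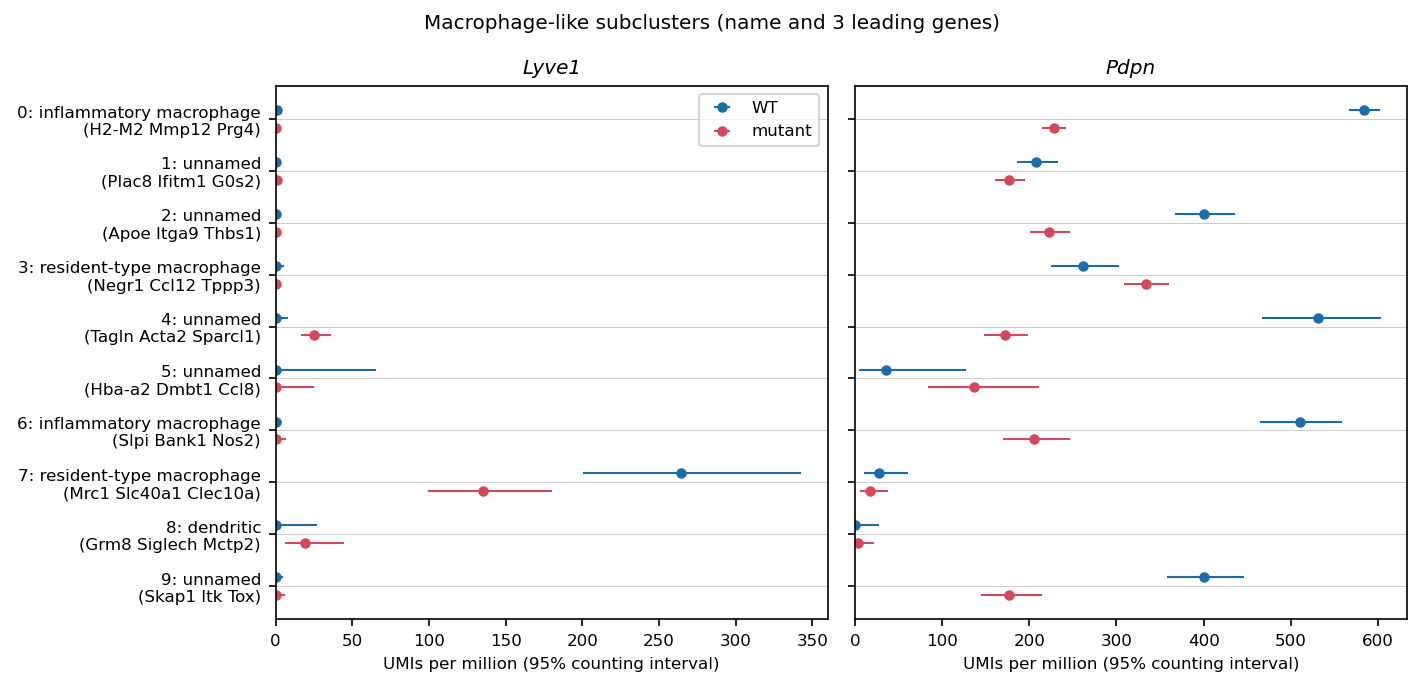
Levels of Lyve1 and Pdpn, in CPM, in the macrophage-like subclusters of both libraries, with 95% counting intervals. Lyve1 reaches 265 and 135 CPM in the Mrc1-led subcluster 7, where Pdpn stands at 27.9 and 17.3 CPM.

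Outside lymphatic endothelium Mmrn1 was spread thinly over several classes and Ccl21a lay mostly in a pair of WT droplets. Of the mutant Mmrn1 UMIs 11.6% came from the other endothelial cells and 9.83% from B lineage-like cells. Mmrn1 held 9 UMIs in 5 of 147 WT and 17 in 12 of 119 mutant B lineage-like cells, 11.6 and 19.4 CPM. An unnamed cluster led by Car1 and Muc13 held 12 in WT and 9 in the mutant. The other endothelial cells held 6 in WT and 20 in the mutant, 18 of the latter in 2 cells of a Stab2-led subcluster. Of Ccl21a outside lymphatic endothelial-like cells, 71 UMIs came from 1 WT mesenchymal-like droplet of 112787 UMIs and 10 from 1 WT satellite-like droplet.

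Ccl21a has near copies in the mouse genome, and reads can be split between them. Of the copies with a feature row, Gm21541 held 7 UMIs, all in 1 mutant lymphatic endothelial-like cell, and Ccl21b, Ccl21c, Gm13304 and Gm10591 held 0. Transcripts of Gm21541 and Gm13304 share 80.6% and 79.5% of the 31-base words of Ccl21a, and 71.5% within the last 300 bases that 3′ libraries read. The Ccl21a values therefore stand for what the authors' counting assigned to this copy, and their split is uncertain.

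Pdpn in this joint was mostly a macrophage transcript. Macrophage-like cells held 6069 of the 7860 WT UMIs (77.2%) and 2963 of the 4569 mutant UMIs (64.9%). The levels were 470 CPM in WT cells (95% interval 458 to 482) against 216 CPM in mutant cells (207.9 to 223.5), for a log2 ratio of −1.12 (−1.19 to −1.06), or −1.15 without the richest droplets. Pdpn was detected in 306 of 595 WT cells and 240 of 753 mutant cells, and after thinning in 29.4% of 571 (25.7 to 33.3) and 16.03% of 680 (13.4 to 19.0). Thinned neutrophil-like cells gave 1.89% and 1.68%. Of 12335 genes in these cells 9.56% differed at least 2-fold, 7.74% upward and 1.82% downward.

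The level of Pdpn varied between macrophage subclusters. The inflammatory subcluster led by H2-M2 and Mmp12 held 4025 UMIs at 585 CPM in WT and 1068 at 228 CPM in mutant cells, for a log2 ratio of −1.36 (−1.46 to −1.26). A second inflammatory subcluster, with Nos2 and Arg1, stood at 510 and 205 CPM, a ratio of −1.31. The Lyve1-bearing resident-type subcluster was low, with 6 UMIs in each library. The resident-type subcluster without Lyve1 was higher in the mutant, with 262 CPM against 334 CPM, a ratio of 0.35 (0.11 to 0.60). In the mutant the intervals of all macrophage-like cells and of satellite-like cells overlapped for Pdpn.

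Mesenchymal-like cells came next in their share of Pdpn, with 12.5% of the WT and 14.1% of the mutant UMIs. They held 981 UMIs in 284 of 547 WT cells and 644 in 163 of 355 mutant cells. Their levels of 119 and 107 CPM gave a log2 ratio of −0.16 (−0.31 to −0.02), and −0.30 without the richest droplets, one of which held 89 of the mutant UMIs and 8 of 8 macrophage markers. Over 10 other settings it ran from −0.49 to −0.20. In these cells 6.97% of 13016 genes differed at least 2-fold, 2.6% upward and 4.37% downward. Among the subclusters, the WT and mutant levels were 176 and 130 CPM in one led by the chemokines Ccl7 and Cxcl9, 151 and 100 CPM in Pi16-type fibroblasts, and 57.7 and 158 CPM in tendon-type fibroblasts, where 27 of the 52 mutant UMIs lay in 1 cell. A subcluster led by Adamts18 and Col2a1 was low, at 7.63 and 21.5 CPM. Synovial lining fibroblasts, the Prg4-bearing cells that coat the joint cavity, held Pdpn in 6 of 8 WT cells and 12 of 12 mutant cells, at 226 and 91.6 CPM, with 39 of the 52 WT UMIs in 1 cell. Satellite-like cells held 95 UMIs in 40 of 89 WT cells and 52 in 23 of 35 mutant cells, at 146 and 207.5 CPM. Prox1 was present in 29 of those 40 and 20 of those 23 cells. Over all satellite-like cells it was present in 62 of 89 and 29 of 35, which are similar shares.

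Most Reln UMIs came from glia and red-cell precursors, with 52.0% of the WT UMIs in Schwann-like cells and 72.6% of the mutant UMIs in erythroid-like cells. Schwann-like cells held 1059 UMIs in 284 of 373 WT cells and 844 in 143 of 160 mutant cells, with medians of 2 and 4 UMIs per cell. The levels were 578 CPM in WT cells (95% interval 544 to 614) against 1091 CPM in mutant cells (1019 to 1167), for a log2 ratio of 0.92 (0.78 to 1.05). In the cluster led by Fabp7 and Adgrb3 the levels were 108 and 231 CPM. Thinned shares were 64.4% of 309 cells for WT (58.8 to 69.7) and 78.1% of 146 for the mutant (70.5 to 84.5). Of 9035 genes in these cells 9.66% differed at least 2-fold, 2.87% upward and 6.8% downward.

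Erythroid-like cells held 618 UMIs of Reln in 106 of 308 WT cells and 3844 in 378 of 654 mutant cells. The levels were 185 CPM (171 to 200) and 577 CPM (559 to 596), a log2 ratio of 1.64 (1.52 to 1.77), and 13% of 8459 genes in these cells differed at least 2-fold, 3.53% upward and 9.47% downward. Thinned, 21.5% of 298 WT and 39.8% of 618 mutant cells held Reln, against 0.755% and 1.35% of neutrophil-like cells. The same order held in both large erythroid clusters, with 266 and 831 CPM in the cluster led by Slfn14 and 108 and 396 CPM in the one led by Hemgn and histone genes. A cluster led by Bpgm and haemoglobin genes held 1 UMI in 11 WT cells and 3 in 79 mutant cells. Elsewhere Reln was lower. In the mutant, 2 unnamed clusters with haemoglobin genes among their leading genes stood at 71.6 and 62.5 CPM, from 47 and 114 UMIs. Neutrophil-like cells held 6 WT and 43 mutant UMIs, and mesenchymal-like cells 35 and 16. B lineage-like cells held 40 WT UMIs in 11 cells and 16 mutant UMIs in 6 cells. Other endothelial cells held 39 WT UMIs, 29 of them in 1 droplet, and 52 mutant UMIs in 24 cells. Over all kept cells Reln was at 42.1 CPM in the WT library against 97.5 CPM in the mutant one. In WT its order was lymphatic endothelial-like, Schwann-like, erythroid-like, with intervals apart, and in the mutant Schwann-like and lymphatic endothelial-like cells overlapped.

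The wider lymphatic growth pathway could be read for part of its genes. Of 53 listed genes 51 had a feature row and 17 reached 30 UMIs in lymphatic endothelial-like cells. At a 2-fold limit 1 of the 17 was higher in the mutant and 3 were lower, against 10.1% and 18.1% of all 1767 genes in these cells. The one that was higher was Ramp2, the partner of the adrenomedullin receptor, at 408 and 886 CPM (log2 ratio 1.12, 0.60 to 1.63). The 3 that were lower were Nrp2, a co-receptor of Vegfc (1363 and 492 CPM, −1.47), Nr2f2, a venous and lymphatic nuclear receptor (1031 and 352 CPM, −1.55), and Tbx1 (157 and 70.3 CPM, −1.16, with an interval that spanned 0). The median log2 ratio was 0.16 over 9 receptors and −0.73 over 7 transcription factors. Among those factors only Nr2f2 had an interval wholly below 0, and the median gene of these cells stood at −0.14. These ratios were not recomputed with single cells left out, and 1 WT cell supplied 87548 of the 171625 UMIs of the WT cells.

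Several genes of the pathway differed in level between these cells and the other endothelial cells. The latter include the other 122 WT and 172 mutant cells of the cluster that had as a whole been named lymphatic endothelial. Flt4, the receptor of Vegfc, stood at 606 and 506 CPM in WT and mutant lymphatic endothelial-like cells, with a ratio of −0.26 and an interval that spanned 0, and at 50.1 and 55.8 CPM in the other endothelial cells. Maf, a transcription factor, stood at 1002 and 745 CPM against 6.23 and 20.5 CPM, and Calcrl, the adrenomedullin receptor, at 693 and 773 CPM against 328 and 305 CPM. The cells were clustered and named on such genes, so their height in these cells is a description. Of the ligands, Vegfc was highest in the other endothelial cells, at 127 CPM (WT) and 219 CPM (mutant), with 0 UMIs in lymphatic endothelial-like cells of both libraries. Vegfd held 14 UMIs in 4 WT lymphatic endothelial-like cells (81.6 CPM) and 0 in the mutant ones, and among the larger classes it was highest in mesenchymal-like cells, at 29.6 and 26.7 CPM. Ccbe1, which acts in the processing of Vegfc, stood at 122 and 125 CPM there. Ccr7, the receptor for Ccl21a, had 59 WT and 222 mutant UMIs over all kept cells and was highest in B lineage-like cells. Clec1b, the receptor for podoplanin, was highest in macrophage-like cells, at 27.0 and 17.7 CPM.

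Outside lymphatic endothelium each of the genes followed other companions. Over 39 class-by-library profiles with at least 20 cells, which leave the lymphatic endothelial-like cells out, genes among those most like Prox1 in log2(CPM + 5) were Chrna1 and Pax7 (Pearson r 0.93 and 0.91). Those most like Lyve1 were Myh11, Cnn1 and Pcsk1 (0.77, 0.75 and 0.74), and those most like Mmrn1 were Vpreb1, Dntt and Gm41335 (0.82, 0.81 and 0.81). Pdpn was most like Ptgfrn, Anxa4 and Ksr2 (0.76, 0.75 and 0.75) and Reln most like Hist3h2ba, Art4 and Pcyt1b (0.83, 0.82 and 0.79). Ccl21a, with Gm17167, Gm10260 and Fgf12 (0.81, 0.76 and 0.69), rested on the 2 droplets named above. Mmrn1 rested on few UMIs, with 9 in WT and 17 in mutant B lineage-like cells. Between the 6 genes themselves r ran from −0.34 for Mmrn1 and Pdpn to 0.45 for Prox1 and Ccl21a. The profiles share 2 libraries and differ in depth, and these correlations are descriptions.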

How the data were processed

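Single-cell RNA sequencing with 10x Genomics 3′ chemistry was done on WT and Prox1+/− mutant TMJ tissue after CFA, 1 library each. The deposited matrices hold UMI counts per gene and barcode, which the authors made with Cell Ranger 7.0.1 on mm10 per the labels. Whether intronic reads were counted is not given in the sources used here. Every column was mapped to a library and 0 were left unmapped. Ages differ between the sources, with 8 to 10 weeks in the labels and 2 months in the study's text. The labels give the strain as C57BL/6 and the methods as C57BL/6J.

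Barcodes were kept from 500 detected genes upward and below 10% mitochondrial UMIs. Cells were clustered in Seurat 5.3.0 (R 4.3.3, sctransform 0.4.2) after SCTransform and anchor integration on 3000 features without the 6 genes, with 200 principal components at resolution 1.5. Endothelial, macrophage and mesenchymal cells were reclustered from log-normalized counts on 2000 features with 30 components, 10 neighbours and resolution 0.5, a space chosen after the clusters had been seen. A cluster was named where at least 3 markers of 1 of 29 lists were raised, at 2-fold or more over the other cells with a prior of 5 CPM and a UMI in at least 10% of cells, and left unnamed where another lineage led it. No list held any of the 6 genes. The cell types are rebuilt here and can differ from those of the study. Scrublet (scanpy 1.11.5) called 0 doublets at its own threshold, and whether its scores worked was not tested. Its highest-ranked 239 WT and 462 mutant barcodes were marked, kept in the main counts and removed in an alternative.

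Levels are sums of counts over cells with exact Poisson 95% intervals. Ratios of mutant over WT have exact conditional binomial intervals, shares of cells have Clopper-Pearson intervals and differences of shares Newcombe intervals. UMIs of 1 library are not replicate animals, so all of them cover counting error only, and no p-value was computed. Shares with a UMI were also computed after thinning each cell to 2000 UMIs with seed 1. The limit for a count of 0 is 3 UMIs or cells. The share of genes past 2-fold was taken over genes with at least 30 UMIs in the cells compared. The scripts were tested on simulated data.

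The text names the 6 genes, for each of them the 3 genes with the most similar profile, and genes of a list of lymphatic growth genes with at least 30 UMIs in lymphatic endothelial-like cells. Some items that this rule or the clusters would name are not reported here. Ligands and partners under that limit were named after their values were seen, as were the clusters singled out. The members and lists were chosen with earlier results of these data known. Alternatives covered the cell filters, integration, normalization, components, resolution, doublets, the thinning depth and single droplets. The analysis used Python 3.11.15, numpy 2.4.6, scipy 1.17.1 and matplotlib 3.10.9. Gene positions came from GENCODE M21 on GRCm38 and promoters from RefSeq.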

Additional observations from a re-analysis of the deposited data

Results flagged for a closer look

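Some genes had opposite directions in different cell classes, with counting intervals on either side of 0, and the difference between the classes was not tested. For Prox1 the log2 ratio of mutant over WT was 1.46 in the other endothelial cells, where 34 and 13 of 77 mutant UMIs lay in 2 droplets and the ratio was 0.78 without the richest droplets, and −1.25 in lymphatic endothelial-like cells. For Lyve1 it was 2.38 in lymphatic endothelial-like cells and −0.60 in smooth muscle and pericyte-like cells. For Pdpn it was 1.10 in chondrocyte-like cells, from 37 UMIs in each library, and −1.47 in Schwann-like cells, from 72 UMIs in WT and 11 in the mutant. For Reln it was 4.21 in macrophage-like cells, from 3 UMIs in WT and 59 in the mutant. Of those 59, 22 lay in 1 droplet and 55 in the subcluster led by Tagln and Acta2, whose WT cells held 0 UMIs of Reln. In B lineage-like cells the ratio of Reln was −1.50, from 40 and 16 UMIs.

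Barcodes that the cell filter removed also held UMIs of these genes. Of these barcodes, 11 in WT and 10 in the mutant had an endothelial gene and at least 2 lymphatic markers. The UMIs that follow are sums over all removed barcodes, 1357 in WT and 2089 in the mutant. There were 11 UMIs of Prox1 in WT and 15 in the mutant, 12 and 14 of Lyve1, and 73 and 141 of Reln. Pdpn had 445 UMIs there in WT and 220 in the mutant. Mmrn1 had 9 in WT and 50 in the mutant, and 35 of the latter came from 1 barcode of 85338 UMIs in which 0 of 13 lymphatic markers were detected.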

How the results depend on the processing

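No paired analysis was possible because each group has 1 library. The log2 ratio of Prox1 in lymphatic endothelial-like cells ran from −1.34 to −1.10 over 11 alternatives. Settings that returned the same 16 cells, such as log-normalization and resolution 0.5, could only repeat the main value. Leaving out 1 cell in turn gave a wider range for Prox1, from −1.56 to −0.88. Lymphatic endothelial-like cells could not be named under the laxer filter (from 200 genes, mitochondrial share below 20%), so their values could not be computed there. Without the droplet of each library richest in the gene, Prox1 over all kept cells was −0.72, and in lymphatic endothelial-like cells Mmrn1 was −1.61, Reln was −1.12 and Ccl21a reversed to −2.45. Leaving out each of the 16 cells in turn, an alternative added after seeing the data, gave 1.35 to 2.93 for Lyve1, −1.49 to 0.038 for Mmrn1, −2.79 to 2.15 for Ccl21a and −1.47 to 0.42 for Reln, so the last 3 changed sign with 1 cell. Subclusters in the integrated space, also added after seeing the data, held 49 WT and 25 mutant cells. Of these, 58 were not among the main 16 cells, and only 7 of the 58 held Prox1 and 5 held Mmrn1. The integrated subclusters gave 0.86 for Ccl21a and a difference in share of kept cells of −0.692 percentage points. Without clusters it was −1.03, where most cells that met the rule were other endothelial cells. With 30 components that difference was −0.132, with an interval that spanned 0. Lyve1 in macrophage-like cells was −0.56 with log-normalization. Pdpn in mesenchymal-like cells was −0.43 with the laxer filter, −0.49 merged without integration, −0.38 with log-normalization, −0.33 with 30 components and −0.38 at resolution 0.5, and the cause was not tested. Under the stricter filter (from 1000 genes, mitochondrial share below 5%), lymphatic endothelial-like cells held 28.0% of WT Lyve1 UMIs and 13.8% of WT Reln UMIs, and with 30 components 86.6% of WT Mmrn1 UMIs. Genes past 2-fold in these cells numbered 125 at a minimum of 100 UMIs and 1693 at a minimum of 10. How many genes were compared at these minimums is not given here, so the counts cannot be read as shares. With 16 cells, counting error and single cells limit every value of lymphatic endothelium.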
